A study of Mus musculus with 15 samples.

Results

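The GABA-A receptor subunit genes Gabra2, Gabra3, Gabra4, Gabra5, Gabra6 and Gabrd were described across cerebellum (Ce) and striatum (St). They were taken by gene symbol from an RNA-seq table of 26628 genes, by a rule that uses no measured value, although earlier results of these data were known when the set was chosen. All 6 were found. Genes were tested when at least 3 samples reached 1 CPM (counts scaled to the same total in every sample), which 15213 genes did. The 6 passed, although Gabra6 reached 1 CPM in 0 of the 7 St samples and Gabra5 in 2 of the 8 Ce samples.

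The samples came from male Hsd:ICR mice of 2 lines, a line selected for running long distances on wheels by choice (Hi) and a non-selected control line (Co). By the labels, mice of both lines were housed singly with a running wheel from about 6 weeks of age, and the whole Ce and St were dissected after 7 days. The methods of the study give an earlier start and a shorter period on the wheel. There were 4 CeCo, 4 CeHi, 4 StCo and 3 StHi samples, each from an individual mouse, after the authors removed 1 StHi sample that lay apart from its group. The labels do not say whether a Ce and an St sample came from the same mouse. Each condition was represented by 1 line, so selection and any other difference between those lines cannot be told apart. The p-values measure the spread between these samples.

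GABA-A receptors are pentameric chloride channels opened by GABA, and the alpha subunit of a receptor sets much of its affinity for GABA and its place on the neuron. Receptors with alpha2 or alpha3 and a gamma subunit sit mainly at synapses, whereas alpha6 or alpha4 with delta, and many alpha5 receptors, lie outside synapses and carry tonic inhibition. Alpha6 with delta is the classical pairing of cerebellar granule cells, and alpha4 with delta is found in striatal medium spiny neurons.

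The alpha subunits also fall into diazepam-sensitive and diazepam-insensitive types by 1 residue of the extracellular domain, histidine in the former and arginine in the latter. The codon for that residue is shown in capitals within 27 coding bases of each transcript (GENCODE annotation of GRCm38), because the regional pattern below crosses this division.

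Gabra2: gataccttctttCACaatgggaaaaag
Gabra3: gataccttcttcCACaatggtaaaaaa
Gabra5: gacacgttcttcCACaacggcaagaag
Gabra4: gatactttcttcAGGaatggaaagaaa
Gabra6: gacacttttttcCGGaatgggaaaaag

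Of these 5 alpha genes, 3 carried a histidine codon and 2, Gabra4 and Gabra6, an arginine codon. Of the 27 positions, 16 held the same base in all 5. Gabrd encodes no alpha subunit and is not in this alignment.

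The 250 bases before the start site of the 2 genes with the largest regional differences of the 6 are given next (RefSeq, GRCm38.p6, minus strand for both), with CpG dinucleotides in capitals. Gabra6 is at chr11:42321073-42321322 and Gabra5 at chr7:57510060-57510309.

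Gabra6: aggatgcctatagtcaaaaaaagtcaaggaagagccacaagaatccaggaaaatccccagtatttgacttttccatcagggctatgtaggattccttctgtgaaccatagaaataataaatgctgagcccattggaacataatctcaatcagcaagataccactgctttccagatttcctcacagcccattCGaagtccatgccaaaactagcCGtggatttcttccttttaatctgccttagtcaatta
Gabra5: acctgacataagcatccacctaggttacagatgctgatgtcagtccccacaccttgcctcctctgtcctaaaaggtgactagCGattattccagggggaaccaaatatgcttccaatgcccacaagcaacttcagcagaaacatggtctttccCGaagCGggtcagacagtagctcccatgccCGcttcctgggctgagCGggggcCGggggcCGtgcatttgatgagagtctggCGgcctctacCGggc

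The Gabra6 sequence held 2 CpG dinucleotides and that of Gabra5 held 9. Over the 300-base windows that also take in 50 bases after the start, the ratio of observed to expected CpG was 0.155 for Gabra6, above 21.8% of the 32851 mouse windows of that kind, and 0.541 for Gabra5, above 60.6%. The letters TTGGC, the core of nuclear factor I sites, were searched on both strands. They occurred 1 time in the Gabra6 window and 0 times in the Gabra5 window, and 46.7% of all windows held them. Neither window held TATAAA on either strand, which 13.6% of all windows did. Windows were found for 5 of the 6 genes, and none for Gabrd.

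In GRCm38 all 6 genes are on the minus strand, and 5 of them lie in clusters of GABA-A subunit genes. Gabra6 (chr11:42306437-42321072) lies beside Gabrb2, and Gabra2 (chr5:70957597-71095849) and Gabra4 (chr5:71569749-71658308) between Gabrg1 and Gabrb1. Gabra5 (chr7:57407672-57510059) lies beside Gabrg3, Gabra3 (chrX:72432681-72656848) between Gabre and Gabrq, and Gabrd stands alone at chr4:155384980-155398112. Some of these genes overlap others on the opposite strand. Gabra4 shares 46 exonic bases with Gabrb1, and Gabra5 shares 148 with the antisense gene Gm9962, so reads from those bases could not be assigned without strand information.

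Expression is given in normalized counts, which are fragment counts divided by 1 factor per sample. The samples held 32909447 to 47486319 fragments, and 1 fragment was worth 0.841 to 1.30 normalized counts. Defining markers followed the labelled tissue. In each Ce sample the 8 granule cell markers summed to between 175200 and 218966, against 9131 to 10943 in St, and the 8 medium spiny neuron markers summed to 168672 to 233951 in St against 8319 to 11668 in Ce. In whole tissue, fewer cells of a type and less RNA per cell cannot be told apart. CeHi replicate 3 stood apart from the other Ce samples in several transcripts rich in St, as described below.

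Gabra6, the granule cell alpha subunit, was the most regional of the 6 genes. It had 52748, 58312, 52597 and 53915 normalized counts in CeCo replicates 0 to 3 and 61069, 52192, 48245 and 52243 in CeHi. In St the values were 19.7, 19.8, 10.5 and 23.8 in StCo and 18.2, 12.6 and 22.6 in StHi. Every Ce sample was thus far above every St sample, and the lines overlapped in both regions. The 10 to 26 fragments per St sample were above the detection floor of 3 fragments, which covers counting error only. As a share of the Ce mean, Gabra6 in St was 0.0195% to 0.0441%, where the median of the 8 granule cell markers was 1.76% to 4.25% and the lowest of the 8 was 0.0191% to 0.0585%. The log2 difference between regions (Ce minus St) was 11.50 ± 0.20 (SE, n = 4 and 4) in Co and 11.50 ± 0.22 (n = 4 and 3) in Hi, with adjusted p of 3.41e-15 and 1.13e-14 by limma.

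Gabrd, the delta subunit that joins alpha6 or alpha4 in extrasynaptic receptors, was also higher in Ce but was abundant in both regions. It had 9265, 9475, 8515 and 9610 normalized counts in CeCo and 8448, 7979, 8143 and 8738 in CeHi. In St it had 3684, 3145, 3358 and 4062 in StCo and 4356, 4464 and 3883 in StHi. No Ce sample overlapped an St sample, and the difference was 1.37 ± 0.07 on the log2 scale in Co and 0.97 ± 0.08 in Hi (adjusted p = 1.67e-11 and 5.87e-09), or 2.59-fold and 1.96-fold.

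The other 4 genes were higher in St. Gabra4, the usual partner of delta in forebrain neurons, had 10727, 9146, 7813 and 11399 normalized counts in StCo and 8556, 10066 and 10365 in StHi. In Ce it had 1803, 2130, 2061 and 2070 in CeCo and 2286, 1697, 1972 and 2550 in CeHi. The lowest St sample was above the highest Ce sample, and levels were 4.82-fold higher in StCo and 4.59-fold higher in StHi (log2 Ce minus St of -2.27 ± 0.13 and -2.20 ± 0.14, adjusted p = 2.12e-10 and 1.04e-09).

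Gabra3, an alpha subunit of synaptic receptors in monoaminergic and deep cortical neurons, had 6175, 6561, 5336 and 5355 normalized counts in StCo and 6309, 4568 and 5245 in StHi. The Ce values were 715, 734, 723 and 629 in CeCo and 958, 835, 910 and 1229 in CeHi. Again no sample overlapped between regions. The log2 difference was -3.06 ± 0.12 in Co and -2.46 ± 0.12 in Hi, which is 8.37-fold and 5.49-fold higher in St (adjusted p = 7.60e-13 and 4.52e-11).

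Gabra5, best known from hippocampal pyramidal cells, was low in every Ce sample. It had 2328, 2255, 1875 and 2484 normalized counts in StCo and 1986, 1714 and 2085 in StHi. In Ce it had 28.0, 24.1, 29.0 and 19.6 in CeCo and 44.6, 23.2, 26.9 and 143.7 in CeHi. The Ce values rested on 22 to 136 fragments, and CeHi replicate 3 was more than 3 times the next highest Ce sample. The log2 difference was -6.43 ± 0.42 in Co and -5.39 ± 0.45 in Hi (adjusted p = 6.60e-09 and 1.25e-07), or 86.2-fold and 42.0-fold higher in St.

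Gabra2, a synaptic alpha subunit of forebrain, had the smallest log2 region differences among the 6. It had 4421, 4571, 3897 and 5110 normalized counts in StCo and 3655, 4413 and 4731 in StHi, and 1807, 2034, 1820 and 2107 in CeCo and 2606, 2492, 2020 and 2608 in CeHi. The St values were all above the Ce values, by 2.32-fold in Co and 1.76-fold in Hi (log2 -1.21 ± 0.10 and -0.81 ± 0.11, adjusted p = 9.11e-09 and 3.74e-06).

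The plot of all sample values shows this split of 2 genes higher in Ce and 4 higher in St. Of the arginine-type alpha genes, Gabra6 was higher in Ce and Gabra4 in St. The region difference passed the test for 6 of the 6 genes in Co, where 74.7% of all genes tested did, and for 6 of the 6 in Hi, where 70.5% did. By direction, 37.8% of all genes were higher in Ce and 36.9% lower in Co, and 35.4% and 35.1% in Hi, so a passing region difference was common among all genes. The median log2 difference in Co was -1.74 for the 6 genes against 0.01 for all genes.

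**Figure D1:**
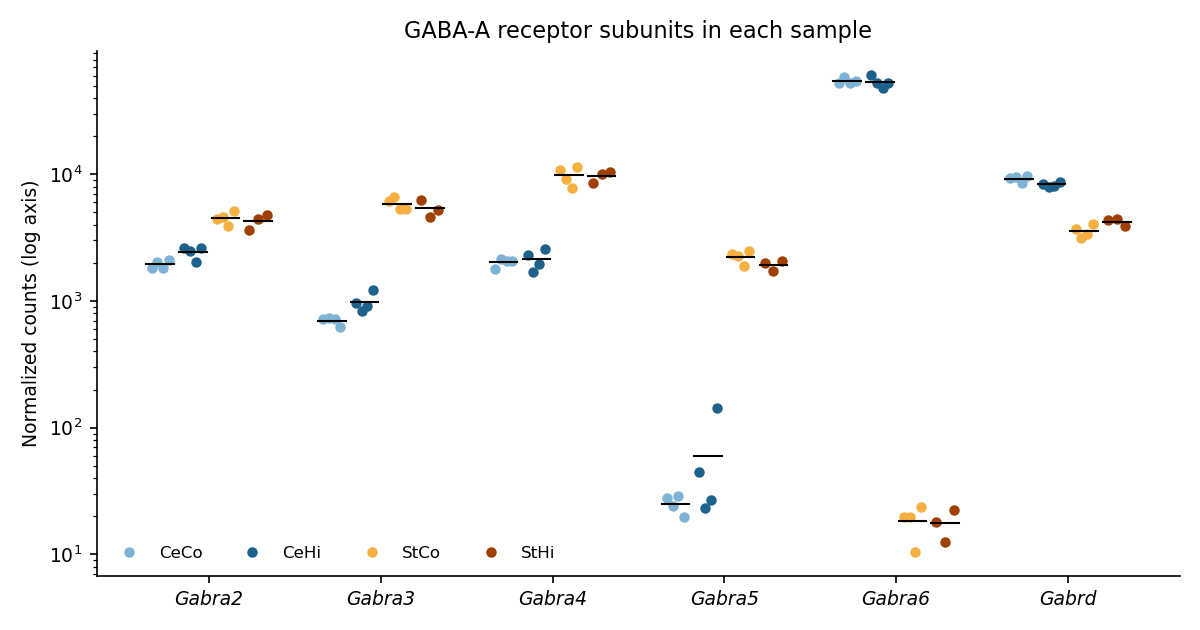
Normalized counts (log axis) of the 6 subunit genes in each of the 15 samples, coloured by group, with the group mean as a black line. Gabra6 lies at 48245 or more in every Ce sample and at 23.8 or less in every St sample, whereas Gabra5 lies at 1714 or more in every St sample and at 44.6 or less in every Ce sample other than CeHi replicate 3, at 143.7.

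Neighbouring subunit genes were compared in Co because 5 of the 6 genes lie in clusters. On chromosome 11 Gabrb2, which lies 98684 bases from Gabra6, was also higher in Ce, with a log2 difference of 0.69 beside the 11.50 of Gabra6. The neighbours compared in the other clusters had the opposite sign. On chromosome 5 the differences were -0.92 for Gabrg1 and -0.44 for Gabrb1, nearer 0 than those of Gabra2 and Gabra4. On chromosome 7, Gabrg3 differed by -4.61. It had 249 to 468 normalized counts in St and 10.2 to 33.8 in Ce. The genes beside Gabra3 on chromosome X, Gabre and Gabrq, differed by -3.86 and -4.18, on 0 to 6 and 0 to 20 fragments per Ce sample. Each of these 6 neighbours passed the test in Co (adjusted p from 3.15e-10 to 0.0026, limma), where 74.7% of all genes tested did.

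**Figure D2:**
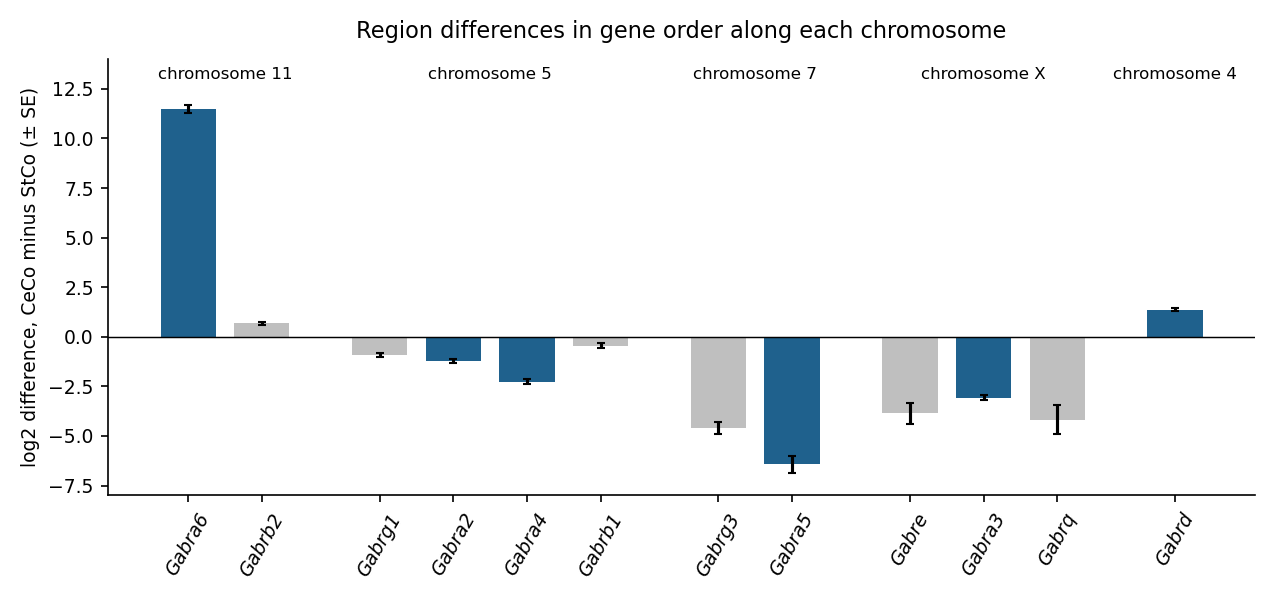
Log2 difference between CeCo and StCo (bars, with the SE as error bars) for the 6 genes (blue) and 6 neighbouring GABA-A subunit genes (grey), in their order along each chromosome. The genes shown on chromosomes 11 and 4 are above 0 and those shown on chromosomes 5, 7 and X are below 0.

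Levels were compared between genes after division by the bases of exon of each gene. In Ce the order of normalized counts per kilobase was Gabra6 (21661), Gabrd (3051), Gabra4 (340), Gabra2 (286), Gabra3 (214) and Gabra5 (14.2). The ranges over the 8 samples overlapped between Gabra4 and Gabra2 and between Gabra2 and Gabra3, and not between the other neighbours in this order. In St the order was Gabra4 (1599), Gabra3 (1440), Gabrd (1339), Gabra5 (707), Gabra2 (576) and Gabra6 (7.30), and neighbours within the first 3 overlapped, as did Gabra5 and Gabra2.

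Shares were taken of the summed levels per kilobase of the 5 alpha genes described here, and other subunits are not part of this sum. Gabra6 made up 96.6% ± 0.10 of it in CeCo (SD, n = 4) and 95.8% ± 0.60 in CeHi (n = 4), with 96.5% to 96.7% and 94.9% to 96.2% in single samples. These ranges did not overlap, and the difference in shares was not tested. The remaining alpha genes were each at most 1.90% in every Ce sample. In St no gene dominated. Gabra4 made up 36.0% ± 2.98 in StCo and 38.1% ± 4.0 in StHi (n = 3), and Gabra3 33.7% ± 3.63 and 32.8% ± 5.04. Gabra5 held 16.9% ± 0.46 and 15.5% ± 0.89, and Gabra2 13.3% ± 0.74 and 13.4% ± 1.66. Gabrd per kilobase was 14.1% ± 1.11 of Gabra6 over the 8 Ce samples and 84.7% ± 13.3 of Gabra4 over the 7 St samples. Dividing by the longest transcript instead kept the order, but Gabra4 and Gabra3 no longer overlapped in St, Gabrd was 60.7% ± 9.51 of Gabra4 there, and the mean Gabra4 share over the 7 St samples moved from 36.9% to 43.3%. The Gabra6 share over the 8 Ce samples moved from 96.2% to 95.1%.

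**Figure D3:**
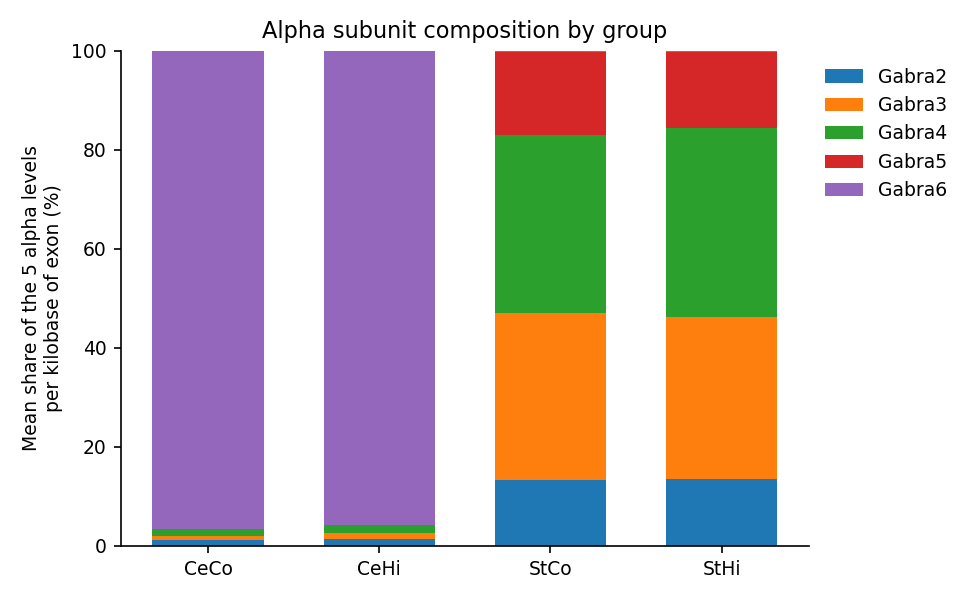
Mean share of each alpha subunit gene in the sum of the 5 alpha levels per kilobase of exon (stacked bars, %), for the 4 groups. Gabra6 fills most of the bars of CeCo and CeHi, and the 4 other genes share nearly all of those of StCo and StHi.

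The question of the selection lines was whether expression differed between Hi and Co within each region. In Ce, Gabra3 was the 1 gene of the 6 that passed the test, where 5.94% of all genes tested did, 2.94% with higher values in Hi. Its CeHi values of 835 to 1229 were all above its CeCo values of 629 to 734, a log2 difference (Hi minus Co) of 0.47 ± 0.12 or 1.39-fold (adjusted p = 0.024, limma). It was also the 1 gene of the 6 whose lines did not overlap in Ce, as 13.3% of all genes did. The adjusted p was 0.026 with edgeR and 0.0017 with DESeq2. It was above the threshold in 4 of the 15 fits that each left out 1 sample, at 0.053 without CeCo replicate 0, 0.077 without CeCo replicate 3, 0.051 without CeHi replicate 0 and 0.055 without CeHi replicate 3, where the log2 difference was 0.42 to 0.49 for the first 3 and 0.36 for the last.

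The sums of the medium spiny neuron, astrocyte and hippocampal neuron marker lists did not overlap between lines in Ce. Those of the Purkinje cell, cortical excitatory, thalamic, interneuron, microglia, endothelial and choroid plexus lists overlapped. Among single genes tested, 13.3% had lines that did not overlap. The 8 medium spiny neuron markers summed to 8319 to 9782 in CeCo and 10541 to 11668 in CeHi, mostly from Penk and Ppp1r1b, the 4 astrocyte markers to 28053 to 30651 and 32078 to 35579, and the 4 hippocampal neuron markers to 2217 to 2669 and 2680 to 3069. The sums of the 4 oligodendrocyte markers, 160529 to 194603 in CeCo and 185140 to 239610 in CeHi, and of the 8 granule cell markers, 191632 to 218966 and 175200 to 200459, overlapped between lines. No marker of the 5 lists with sums given here passed the test between lines in Ce by limma (0 of 8, 0 of 4, 0 of 4, 0 of 4 and 0 of 8). Their part in the Gabra3 difference was not tested.

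The other 5 genes did not pass between lines in Ce. Gabra2 differed by 0.31 ± 0.10 (adjusted p = 0.077), with 3 of the 4 CeHi samples above all 4 CeCo samples, and passed with DESeq2 (0.031), by which 1388 of all genes passed against 903 by limma, and without CeHi replicate 2 (0.020, log2 0.41). Gabrd differed by -0.15 ± 0.07 (adjusted p = 0.26), with 3 CeHi samples below all CeCo samples. Its granule cell partner Gabra6 differed by -0.04 ± 0.20 (adjusted p = 0.95, 95% confidence interval -0.47 to 0.40), and Gabra4 by 0.06 ± 0.13 (0.85, -0.21 to 0.33). The fit shared the spread of Gabra6 with the St samples, which held 10 to 26 fragments of it. In a limma fit of the Ce samples alone, Gabra6 differed by -0.03 ± 0.07 (adjusted p = 0.83) and Gabra5 by 0.82 ± 0.49 (0.39).

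Gabra5 had the largest estimated line difference of the 6 genes in Ce, 0.82 ± 0.42, and did not pass (adjusted p = 0.30). It rested on CeHi replicate 3, without which the difference was 0.27. In that sample Gabra5 was at 6.83% of its St mean, against 0.931% to 2.12% in the other 7 Ce samples. The median of the 8 medium spiny neuron markers was at 1.94% there and 0.509% to 0.653% in the others, and 6 of the 8 were highest in that sample, with Drd2 at 109 normalized counts against 18.7 to 33.6 and Tac1 at 189 against 17.8 to 56.3. The abundant Penk (4523) and Ppp1r1b (5868) were not, and the sum of the 8 was 5.51% of the St level there against 4.04% to 5.67% in the others. Of the 5 thalamic markers 3 were highest in it, Tcf7l2 at 1183 against 176 to 237, Slc17a6, a glutamate transporter of subcortical neurons, at 2267 against 654 to 1190, and Rgs16 at 1115 against 847 to 1073. Lef1 was at 101 against 88.5 to 109, and Prkcd, the most abundant of the 5, was lowest in it, at 2930 against 3380 to 4765. Gabra3 was at its highest Ce share there too, 21.8% of its St mean against 11.1% to 17.0%, and so was Gabrg3, at 8.99% against 2.71% to 6.26%. The 4 interneuron markers were all highest in it, with Sst at 613 against 57.0 to 89.1 and Pvalb at 25014 against 21324 to 24066. Chat and Lhx6 were at 12.7 or less in every Ce sample. The 5 cortical excitatory markers were not raised in CeHi replicate 3, with a median of 6.47% against 3.19% to 8.08%. The individual markers were chosen after their values were seen, and the part of other tissue in these values was not tested.

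**Figure D4:**
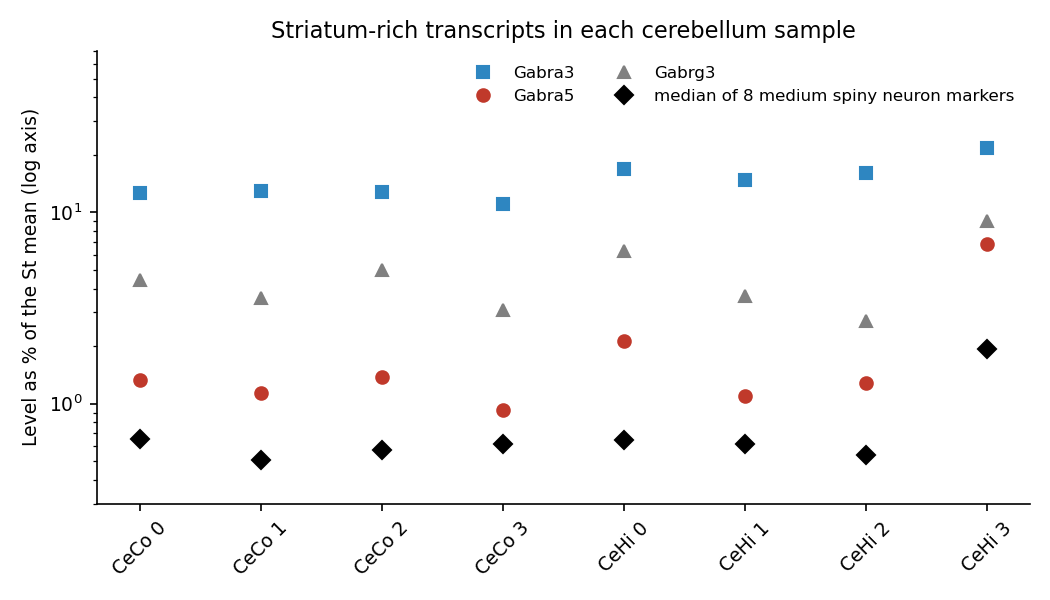
Levels in each of the 8 Ce samples as a percentage of the St mean (log axis) for Gabra3, Gabra5, Gabrg3 and the median of 8 medium spiny neuron markers. CeHi replicate 3 is the highest for all 4 quantities, with Gabra5 at 6.83% and the marker median at 1.94%.

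In St, 0 of the 6 genes passed between lines by limma, where 2.66% of all genes did, and 0 passed by edgeR and 0 by DESeq2. At an unadjusted p under 0.05, as 14.1% of all genes had, there was 1, Gabrd, which differed by 0.25 ± 0.08 or 1.19-fold (unadjusted p = 0.0056, adjusted p = 0.11, limma). Its StHi values of 3883 to 4464 overlapped its StCo values of 3145 to 4062 by 1 sample of each line, and it passed without StCo replicate 3 (adjusted p = 0.028, log2 0.31). No gene of the 6 had lines that did not overlap in St, as 13.1% of all genes did. The differences of the other genes were -0.08 ± 0.11 for Gabra2, -0.14 ± 0.12 for Gabra3, -0.01 ± 0.14 for Gabra4, -0.22 ± 0.45 for Gabra5 and -0.04 ± 0.22 for Gabra6, with adjusted p from 0.72 to 0.99. The fit shared its spread over all 4 groups, and for Gabra5 that spread included CeHi replicate 3. In a limma fit of the St samples alone, Gabra5 differed by -0.21 ± 0.10 (adjusted p = 0.40). For Gabrd and Gabra6 the SE was larger in that fit, with differences of 0.25 ± 0.09 (adjusted p = 0.23) and -0.03 ± 0.34 (0.98).

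In St the sums of the thalamic and oligodendrocyte marker lists did not overlap between lines, and those of the other lists did. Among single genes tested, 13.1% had lines that did not overlap. The 5 thalamic markers summed to 2685 to 4083 in StCo and 4423 to 4859 in StHi, with Slc17a6 at 551 to 1202 and 1794 to 2284, Tcf7l2 at 198 to 379 and 541 to 724 and Rgs16 at 385 to 418 and 454 to 580. Lef1 (106 to 139 and 117 to 187) and Prkcd (712 to 2168 and 1272 to 1436) overlapped between lines. The 4 oligodendrocyte markers summed to 175136 to 256819 in StCo and 267664 to 307421 in StHi. The 5 cortical excitatory markers summed to 7742 to 10945 in StCo and 4620 to 8593 in StHi, and these sums overlapped between lines. The sample with the lowest cortical sum, StHi replicate 1, was also the lowest St sample for Gabra3 (4568) and Gabra5 (1714). The 4 choroid plexus markers summed to 1251 to 1765 in StCo and 1761 to 17849 in StHi. In Ce they summed to 1303 to 115133 in CeCo and 942 to 111567 in CeHi. Of the thalamic, oligodendrocyte, cortical and choroid plexus lists 0 of 5, 0 of 4, 0 of 5 and 0 of 4 markers passed between lines in St by limma. The part of these lists in the Gabrd, Gabra3 and Gabra5 values was not tested.

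Whether the line difference itself differed between regions was tested by the interaction, the Ce difference minus the St difference. None of the 6 genes passed by limma (0, where 0.532% of all genes did) or by edgeR (0), and 3 had an unadjusted p under 0.05, as 9.56% of all genes had. Gabrd had an interaction of -0.40 ± 0.11 (adjusted p = 0.12), lower in Hi in Ce and higher in Hi in St. Gabra3 had 0.61 ± 0.17 (adjusted p = 0.16) and Gabra2 0.40 ± 0.15 (adjusted p = 0.34), both with a higher estimate in Hi in Ce and a lower one in St. DESeq2 passed 2 of them, Gabra3 and Gabrd (0.030 each), and sample quality weights passed Gabra3 (0.038), settings under which 277 and 182 of all genes passed against 81 by limma without weights. Leaving out StCo replicate 3 passed Gabrd (0.038), with 70 of all genes passing. The estimates were 0.07 ± 0.19 for Gabra4, 1.04 ± 0.61 for Gabra5 and 0.00 ± 0.30 for Gabra6.

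**Figure D5:**
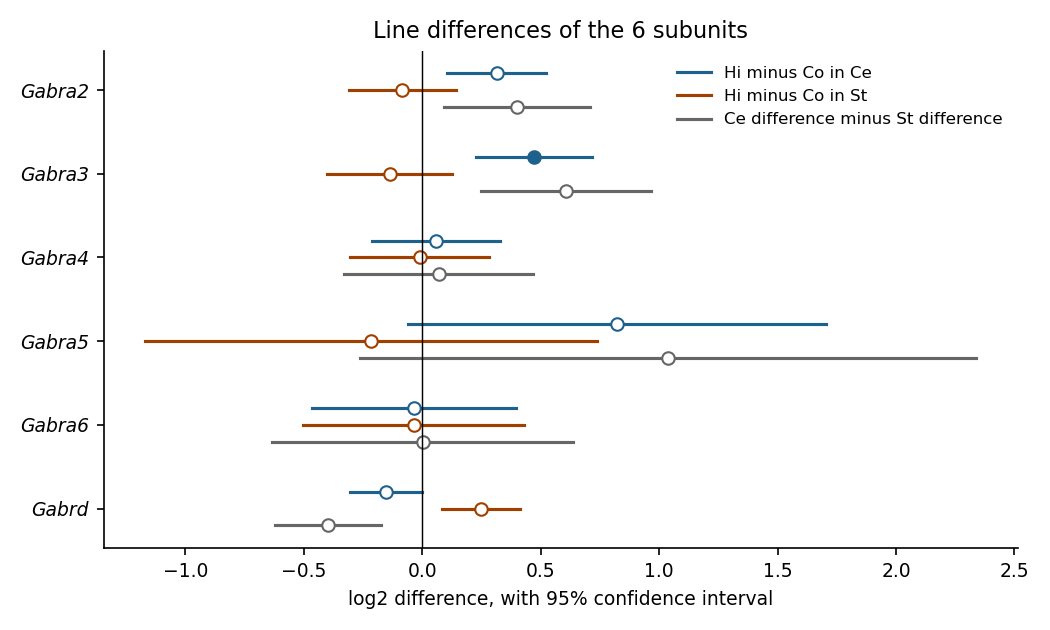
Log2 line differences (points) with 95% confidence intervals (lines) of the 6 genes in Ce, in St and for the interaction, where a filled point passed at an adjusted p of 0.05 in limma. The intervals use a spread shared by all 4 groups, which was wider than that of Ce alone for Gabra6 and of St alone for Gabra5. It was narrower than that of St alone for Gabra6 and Gabrd and of Ce alone for Gabra5. The 1 filled point is Gabra3 in Ce, at 0.47. The Gabrd differences lie on opposite sides of 0 in Ce (-0.15) and St (0.25).

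The remaining genes of the pathway were given as counts from fixed lists. Of all genes tested by limma, 37.8% were higher and 36.9% lower in CeCo than in StCo. Between lines 5.94% passed in Ce and 2.66% in St, and 0.532% passed for the interaction. At an unadjusted p under 0.05 the shares were 14.1% in St and 9.56% for the interaction, and the share in Ce was not computed. Of 10 other GABA-A subunits counted here 7 were tested, and 0 passed between lines in Ce, in St or for the interaction (0, 1 and 1 at an unadjusted p under 0.05, limma, and 0 in each by edgeR), whereas 2 were higher and 5 lower in CeCo than in StCo. Of 16 tested genes of receptor assembly, clustering and trafficking 0 passed between lines or for the interaction (2, 1 and 2 at an unadjusted p under 0.05, and 0 in each by edgeR), and 2 were higher and 11 lower in CeCo. The 10 genes of GABA synthesis, transport and breakdown and of chloride transport gave 0 as well (1, 1 and 0, and 0 by edgeR), with 3 higher and 7 lower in CeCo. The median line difference in Ce was 0.19 for the 6 genes, 0.02, 0.04 and -0.06 for these lists and 0.00 for all genes. The 6 genes ranged from -0.15 for Gabrd to 0.82 for Gabra5, which rested on CeHi replicate 3.

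Genes with the most similar profile over the 15 samples were identified by Pearson correlation of log2 values, given as a description. The points share the contrast between regions, and 740 to 2224 genes had r over 0.95 with each of the 6 genes. The 3 closest to Gabra6 were Cbln3 (r = 0.999), Fat2 and Pax3, and Cbln3 and Fat2 are known granule cell genes. Those of Gabrd were Unc5b (0.995), Gm13944 and Calb1, those of Gabra5 were Fam163b (0.997), Pak6 and Hs3st4, and those of Gabra3 were Mpped1 (0.997), Ephb6 and Fam163b. Gabra4 was closest to Sh3gl3 (0.996), Grid1 and Dsel, and Gabra2 to AI597468 (0.981), Clint1 and Slc35b4.

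After the mean of each region was subtracted, so that the variation left was within regions, the closest genes were mostly others. Unc5b, a netrin receptor, was again closest to Gabrd (r = 0.924, n = 15), followed by Itgb1bp1 and Tesk2. Gabra5 was closest to Ptpro (0.952), Chrm1, the muscarinic receptor M1, and again Fam163b, and Gabra3 to Gng13 (0.915), Camk2a and Thy1. Gabra2 was closest to Insig2 (0.931), Pcdh17 and Galnt13, Gabra4 to Abhd5 (0.886), Hlf and Spock3, and Gabra6 to Slc39a10 (0.896), Dcaf6 and Matr3. Among the 6 genes themselves the highest value was 0.797, between Gabra3 and Gabra5, and the lowest -0.445, between Gabrd and Gabra3. Gabrd and Gabra6 had 0.093. In Ce, Gabra3 and Gabra5 were both highest in CeHi replicate 3, at 1229 and 143.7 normalized counts. The other Ce samples held 19.6 to 44.6 of Gabra5, so its values of r lean on that sample, without which they were not computed.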

How the data were processed

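The authors mapped paired-end reads with TopHat2 to GRCm38, and Cuffnorm (version 2.2.1 in the submitters' processing notes) gave counts normalized for library size. The deposited values are a signal, named for FPKM but not divided by gene length: between 99.6% and 99.8% of the low values of a sample were whole multiples of 1 step (tolerance 0.1 of a fragment). Because these are scaled counts, limma was the main test, and edgeR on the recovered fragments, which the study names, was an alternative (952, 421 and 100 genes passed between lines in Ce, in St and for the interaction, against 903, 405 and 81 by limma).

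TMM factors (0.993 to 1.01) were applied to the values, which were transformed as log2(value + 1). Fold changes are on that scale and understate changes of low genes. The 4 group means of 15 samples were fitted with limma 3.58.1 in R 4.3.3 (trended, robust), with Benjamini-Hochberg adjustment over 15213 genes and a threshold of 0.05. Alternatives used edgeR 4.0.16 and DESeq2 1.42.0. The script was tested on simulated data. Within each group, no samples were found to hold the same library. Samples of different groups were not compared for this. Same-numbered CeCo and StCo samples deviated together (correlation 0.171 to 0.278 in 4 pairs), so their numbers may mark pairs. Those of CeHi and StHi (mean -0.018, 3 pairs) and of the lines (means -0.031 in Ce and 0.055 in St) did not. The main fit used no pairing and treated the 15 samples as independent, also for the region differences in Co and the interaction.

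Named were the 6 genes, subunit genes of their clusters (some items are not reported here), listed genes passing a line or interaction test (none did), and the 3 most similar genes by 2 measures. Members and lists were chosen with earlier results of these data known.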

Additional observations from a re-analysis of the deposited data

How the results depend on the processing

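The region differences passed for 6 of the 6 genes in Co and in Hi under every alternative run, and the order of levels per kilobase kept all 12 ranks with the longest transcript and without any 1 sample. Counts between lines were less stable. In Ce, where 1 gene passed, 2 passed with DESeq2 and with the replicate block, and 0 to 2 when 1 sample was left out. In St, where 0 passed, 1 passed with the replicate block and 0 to 1 when 1 sample was left out. For the interaction, where 0 passed, 2 passed with DESeq2, 1 with sample quality weights, 1 with the replicate block and 0 to 1 when 1 sample was left out. The numbers did not pair samples between lines. With the replicate block, Gabra2 in Ce had an adjusted p of 0.043, Gabrd in St 0.031 and the Gabrd interaction 0.046. The block within each line had a fitted correlation of 0.0216, so that fit was close to one without a block and says little about a possible pairing in Co.

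Signs turned only for differences near 0 that did not pass. With sample quality weights Gabra4 in St was 0.0186, with the replicate block Gabra4 in St was 0.0509, Gabra6 in St was 0.0047 and the Gabra6 interaction was -0.0400, and with a pseudocount of 10 the Gabra6 interaction was -0.0051. When 1 sample was left out, Gabra2 in St ranged from -0.162 to 0.0225, Gabra4 from -0.0333 to 0.165 in Ce and from -0.115 to 0.0730 in St, and Gabra6 from -0.0974 to 0.0172 in Ce and from -0.272 to 0.177 in St. The interaction then ranged from -0.0293 to 0.172 for Gabra4 and from -0.212 to 0.236 for Gabra6. The causes were not tested. Gabra5 in Ce and Gabra6 in St rested on few fragments, which limits what their line comparisons can show.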
